A study of Mus musculus with 2 samples.

Results

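The genes described here are 10 components of fibroblast growth factor (FGF) and platelet-derived growth factor (PDGF) receptor signalling, followed by name on 2 arrays of the mouse eye lens: the receptor genes Fgfr1, Fgfr2, Fgfr3 and Pdgfra, the heparan sulfate sulfatase gene Sulf1, the docking protein gene Frs2, the scaffold gene Ksr1, and the feedback regulator genes Spry1, Spry2 and Dusp6. A probe belonged to the set when the platform annotation gave it 1 of these symbols and no other. Of the 10 genes, 9 had such a probe with a value, through 12 probes of the 19819 in the table, and 13709 genes were measured in all. Frs2 had no probe under that rule and was not analysed here.

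RNA came from lenses of mice aged 13 days (5 mice), taken apart with forceps. One sample, called cortex, was the cortical fiber cells, and the other, called epithelium, was the capsule with the epithelial cells attached to it. No genotype, strain or treatment is named for either sample, and it is not stated whether the 5 mice were pooled. Each sample was hybridized to 1 CodeLink array with 1 colour, so no value has a replicate, the samples cannot be tested against each other and no p-value is printed. The design implies 1 comparison, which is cortical fiber cells against epithelial cells.

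FGFs bind receptor tyrosine kinases together with heparan sulfate, and the receptors signal through docking proteins, Ras and the Raf, MEK and ERK kinases. In the lens, FGF signalling drives epithelial cells at the equator to elongate and differentiate into fiber cells, while PDGF acting on PDGF receptor alpha is known for supporting proliferation of the epithelium. Sprouty proteins and the ERK phosphatase DUSP6 are induced by the pathway and restrain it.

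Values are normalized intensities on a linear scale, in units close to each array's median (0.998 on both arrays). A floor of 0.5 times the median (0.499) was used, values under it were raised to it, and differences are log2 cortex minus log2 epithelium. A gene was called higher in a sample if its intensity there was 3-fold or more that of the other sample and reached the array's median. Where only 1 array lay above the floor, the fold is a lower bound and is written as "at least". The sole error that can be had here is how far different probes of 1 gene differ, with a pooled SD of 1.10 on the log2 scale over 558 genes and a median SD of 0.59. Only probes that exceeded the floor in cortex and in epithelium entered this SD. Gene pairs of a bright and a silent probe are therefore left out of it, and multiples of it can understate probe error. This spread holds no variation between animals or between repeated arrays, and what makes probes of a gene differ was not tested.

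With the deposited scaling, most markers of each label passed in the sample of that label. Of 11 fiber marker genes, 9 passed in cortex and none in epithelium, although the list was also bright on the epithelium array (summed intensity 13846 in cortex and 2828 in epithelium). The count was 5 after quantile normalization, loess or centring on ribosomal protein genes, where Cryba1, Crybb1, Crygs and Grifin did not pass, and Crybb1 turned to -0.30 on the log2 scale after quantile normalization. Of 9 epithelial marker genes, 6 were higher in epithelium and none in cortex, among them Cdh1 (0.281 in cortex and 26.0 in epithelium) and Foxe3 (0.208 and 4.92). A text field of each sample names fetal liver, against the titles and source names. Of 9 liver and erythroid genes with a value, 1 was higher in cortex (Ahsg, 185 against 16.9) and none in epithelium. Afp (0.660 and 0.680) lay below the median on both arrays, and Apoa1 (0.242 and 0.228) and Ttr (0.205 and 0.165) lay under the floor. Hba-a1 (1.39 and 1.79) lay above the median on both arrays and Klf1 (1.11 and 0.265) in cortex alone, and neither was called.

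Of the 9 measured members, 3 were at least 3-fold higher in epithelium (Sulf1, Pdgfra and Dusp6) and 2 were higher in cortex (Ksr1 and Spry1). Over all 13709 genes, 8.17% were called higher in epithelium and 9.41% in cortex, 17.6% in either direction. The members' share was 55.6%. Of the 8351 genes exceeding the floor in both samples, 23.4% were called. Dusp6 counts in the members' share but is not among those 8351 genes. The members were listed with earlier results of these arrays known, so their share is a description of the list. Their median log2 difference was -0.64, with Dusp6 at its bound, against 0.00 over all genes and 0.03 over those 8351 genes. Fgfr1, Fgfr2, Fgfr3 and Spry2 did not pass.

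**Figure D1:**
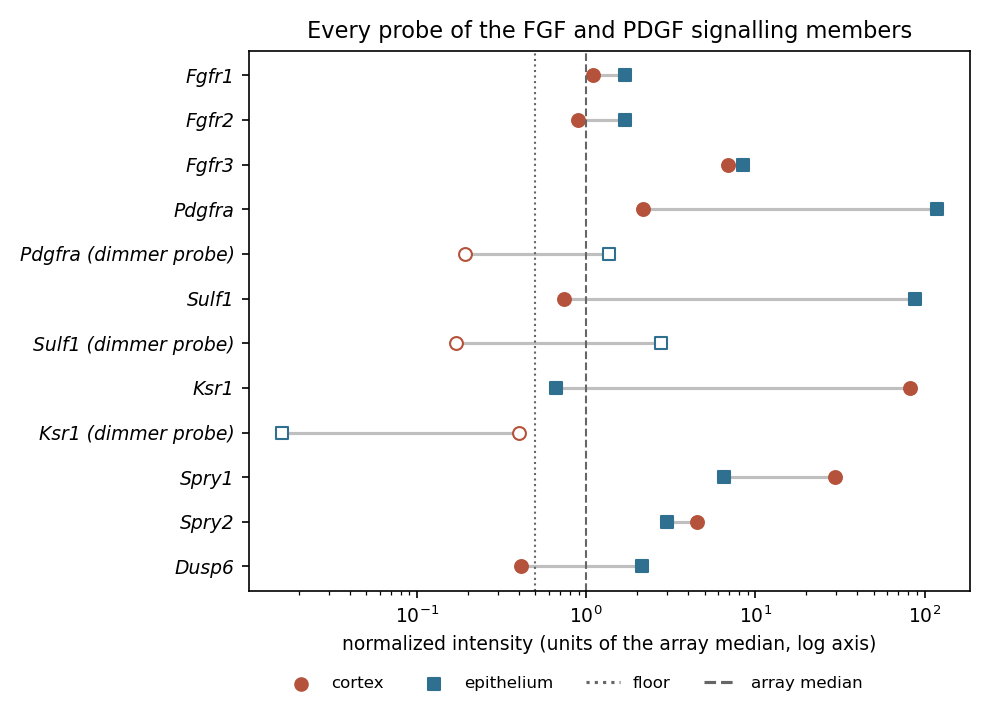
Normalized intensity of all 12 probes of the 9 measured members on the cortex array (circles) and the epithelium array (squares), on a log axis in units of the array median. Filled symbols are the probe used for the gene and open symbols the dimmer probe, the dotted line is the floor (0.499) and the dashed line the median (0.998). Sulf1 and Pdgfra lie far to the right in epithelium, Ksr1 and Spry1 lie to the right in cortex, and the symbols of the FGF receptor genes lie close together.

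The promoters of 4 of the 5 called members are shown because these genes went in both directions. Of the 10 members, 8 matched a promoter by symbol, and Sulf1 and Fgfr1 did not. The sequences are the 250 bases before a start annotated by RefSeq on GRCm38.p6, 5′ to 3′ on the gene's strand, in lower case with motif matches in capitals. The motifs searched on both strands were the ETS core CCGGAA, the AP-1 site TGACTCA, the Maf core TGCTGA, the heat shock element core GAANNTTC, the cyclic AMP response element TGACGTCA, the GC box GGGCGG and the TATA box TATAAA. The genes higher in epithelium were Pdgfra (chr5:75152001-75152250, plus strand) and Dusp6 (chr10:99262981-99263230, plus strand). The genes higher in cortex were Spry1 (chr3:37639697-37639946, plus strand) and Ksr1, for which 2 starts are shown (upstream chr11:79146474-79146723 and downstream chr11:79059837-79060086, both minus strand).
Pdgfra: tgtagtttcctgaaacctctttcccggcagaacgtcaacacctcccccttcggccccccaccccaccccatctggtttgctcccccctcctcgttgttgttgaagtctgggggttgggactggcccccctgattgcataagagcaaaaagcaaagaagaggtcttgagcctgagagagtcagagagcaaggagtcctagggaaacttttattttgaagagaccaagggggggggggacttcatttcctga
Dusp6: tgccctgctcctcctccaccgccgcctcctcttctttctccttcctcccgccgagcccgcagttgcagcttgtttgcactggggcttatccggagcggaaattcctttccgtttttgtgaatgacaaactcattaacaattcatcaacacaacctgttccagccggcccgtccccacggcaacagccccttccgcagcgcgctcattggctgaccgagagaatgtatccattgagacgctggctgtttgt
Spry1: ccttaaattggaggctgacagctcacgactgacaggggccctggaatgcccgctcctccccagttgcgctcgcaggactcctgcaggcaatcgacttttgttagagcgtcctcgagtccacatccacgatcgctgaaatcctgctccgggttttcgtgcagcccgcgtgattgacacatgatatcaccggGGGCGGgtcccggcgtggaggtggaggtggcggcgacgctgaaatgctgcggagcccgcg
Ksr1, upstream start: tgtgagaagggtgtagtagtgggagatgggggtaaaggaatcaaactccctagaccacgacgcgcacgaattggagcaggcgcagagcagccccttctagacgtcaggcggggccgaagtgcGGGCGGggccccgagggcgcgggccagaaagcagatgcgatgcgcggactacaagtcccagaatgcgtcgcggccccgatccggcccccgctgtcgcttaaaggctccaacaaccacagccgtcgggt
Ksr1, downstream start: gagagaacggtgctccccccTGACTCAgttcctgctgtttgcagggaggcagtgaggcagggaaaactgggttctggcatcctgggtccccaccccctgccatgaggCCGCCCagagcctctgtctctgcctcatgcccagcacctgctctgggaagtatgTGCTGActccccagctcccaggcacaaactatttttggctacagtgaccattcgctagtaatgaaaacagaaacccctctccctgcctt

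The Pdgfra and Dusp6 windows held none of the motifs. The Spry1 window held a GC box 60 bases before the start. The upstream Ksr1 window held a GC box 128 bases before its start, and the downstream window held an AP-1 site (230), a GC box (143) and a Maf core (89), none of them overlapping. Of 32851 promoter windows of the same length, 32.7% held the GC box, 16.1% the Maf core, 12.0% the ETS core and 4.46% the AP-1 site. The TATA box was held by 12.4%, the heat shock element core by 6.69% and the cyclic AMP response element by 1.55% of them. A match is a description of the letters and not evidence of binding, and base composition differed moderately between these starts (54.4% G and C for Pdgfra, 56.4% for Dusp6, 62.4% for Spry1, and 64.4% and 58.0% for the Ksr1 starts, against a median of 52.4% over all windows).

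Among the receptors, the PDGF receptor alpha gene was far higher in epithelium, and the 3 FGF receptor genes did not pass the limit. The Pdgfra value was 2.17 for cortex and 118 for epithelium, 54.6-fold apart (log2 -5.77). This is 5.26 times the pooled SD between probes and ranked 6 toward epithelium among the same 8351 genes. A second, dimmer Pdgfra probe read 0.192 in cortex, under the floor, and 1.36 in epithelium, at least 2.73-fold in the same direction but under the limit. Both probes were thus brighter in epithelium, and the size of the difference rests on the brighter one. The dimmer probe did not enter the pooled SD, so the multiple of 5.26 leaves out the spread between these 2 probes.

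Fgfr1, which encodes an FGF receptor expressed in many tissues, stood at 1.09 in cortex and 1.69 in epithelium (log2 -0.64). Fgfr2, the receptor gene with epithelial and mesenchymal splice forms, stood at 0.896 and 1.71 (log2 -0.93). Fgfr3 stood at 6.93 and 8.41 (log2 -0.28). All 3 were brighter in epithelium by 1.21-fold to 1.90-fold, less than the pooled SD between probes (0.58, 0.85 and 0.26 times it). Fgfr1 and Fgfr2 were dim, close to the array medians, and how far they stood over background is not known. Each of the 3 genes had 1 probe. Differences of this size cannot be resolved with 1 array per sample.

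Other receptor and co-receptor genes of the pathway went in both directions. Of 8 measured of 9 listed, 2 passed in each direction (50% called, against 17.6% of all genes). The median log2 difference was -0.76 (-1.53 over those above the floor). Klb, which encodes beta-Klotho, the co-receptor of endocrine FGFs, stood at 4.17 in cortex and under the floor in epithelium (0.237), at least 8.36-fold. Fgfrl1, an FGF receptor that lacks the kinase domain, stood at 22.5 in cortex and 5.77 in epithelium (3.91-fold). The membrane protein genes Flrt3 (5.18 and 20.99, 4.05-fold) and Flrt1 (0.527 and 2.22, 4.21-fold) were higher in epithelium, and Flrt1 did not pass once the floor was raised to the median. Fgfrl1 did not pass after centring on ribosomal protein genes. Pdgfrb, the second PDGF receptor gene and a pericyte gene elsewhere, stood at 4.46 and 12.9 (2.90-fold) without passing the limit. Pdgfrb did pass in epithelium after quantile normalization (log2 -1.69) and after centring on ribosomal protein genes (-2.45). Fgfr4 lay under the floor on both arrays (0.280 and -0.0046).

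**Figure D2:**
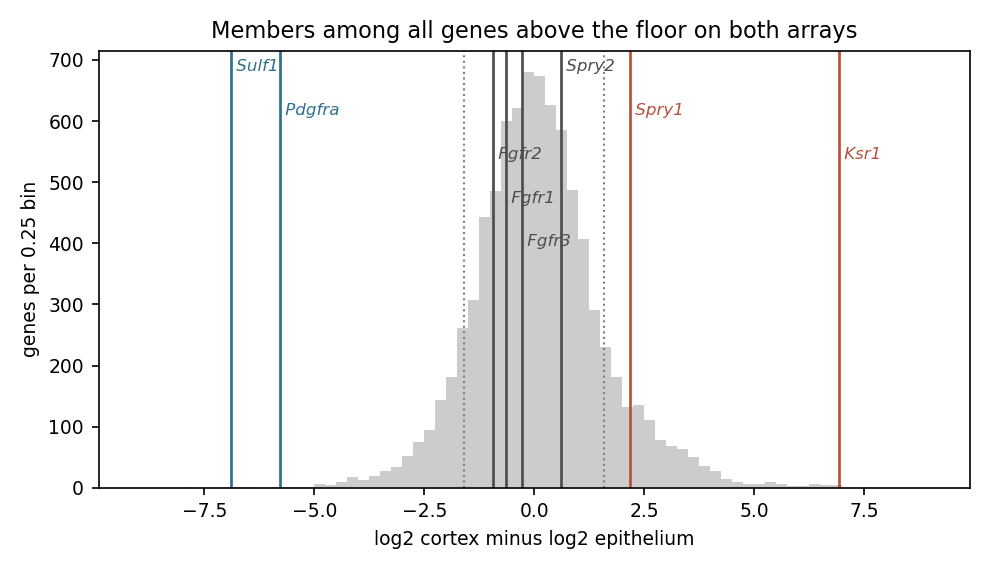
Distribution of the log2 difference (cortex minus epithelium) over the 8351 genes exceeding the floor in both samples, in bins of 0.25, with the 8 members measured on both arrays as labelled vertical lines and the 3-fold limits dotted. Sulf1 (-6.89), Pdgfra (-5.77) and Ksr1 (6.94) lie in the thin tails, Spry1 (2.18) lies past the limit on the shoulder, and Fgfr1, Fgfr2, Fgfr3 and Spry2 lie in the body of the distribution.

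Sulf1, which encodes an extracellular enzyme that removes sulfate groups from heparan sulfate and so changes how FGFs are bound, was the member with the largest difference toward epithelium. It stood at 0.735 in cortex and 87.3 in epithelium, 118.8-fold (log2 -6.89, 6.28 times the pooled SD), and ranked 2 toward epithelium among the same 8351 genes. The cortex value lay between the floor and the median, so the size of this fold depends on the floor, and with the floor raised to the median it was at least 87.5-fold. A second Sulf1 probe read 0.170 in cortex and 2.77 in epithelium, at least 5.56-fold in the same direction. Sulf1 passed on either probe, but with the floor raised to the median the second was at least 2.78-fold, under the limit. The second Sulf1 probe did not enter the pooled SD, so the multiple of 6.28 leaves out the spread between the Sulf1 probes.

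Among genes that build and carry heparan sulfate, 28 were measured of 36 listed. Of these, 5 passed in epithelium and 1 in cortex, and the median log2 difference was 0.00 (-0.47 over those above the floor). The syndecan genes Sdc4 (1.04 in cortex and 22.0 in epithelium, 21.3-fold) and Sdc2 (3.33 and 40.6, 12.2-fold) encode membrane proteins that carry the chains. Ext2, a subunit of the chain polymerase, stood at 1.95 and 11.3 (5.79-fold). Xylt2, which starts the chain on the core protein, was at least 5.17-fold higher in epithelium, and the glypican gene Gpc4 at least 4.04-fold, but neither passed once the floor was raised to the median. Hs6st3, a sulfotransferase that adds sulfate of the kind Sulf1 removes, went the other way, at 38.3 in cortex and 8.40 in epithelium (4.57-fold). Hs6st3 did not pass after centring on ribosomal protein genes.

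Markers of neighbouring tissue were examined beside Pdgfra and Sulf1. Of 9 ciliary body and pigment cell genes, 5 passed in epithelium and 1 in cortex, with a summed intensity of 13.5 in cortex and 147 in epithelium, most of it from Ptgds (7.54 and 123). Oca2 (0.521 and 9.09), Msx1 (1.07 and 8.36) and Tyrp1 (0.241 and 3.30) passed in epithelium also with the floor at the median. Gpx3 (0.317 and 1.55) did not pass there, nor did Dct (1.97 and 0.210), the gene higher in cortex. The part of ciliary body and pigment cells in the Pdgfra and Sulf1 values was not tested. Of 8 fibroblast and mesenchyme genes, 1 was higher in epithelium (Col1a2, 0.055 and 1.67), and the summed intensity was 2.10 and 3.14. The defining genes Col1a1, Col3a1, Dcn and Lum lay under the floor on both arrays. Of 12 astrocyte, pericyte and vessel genes none was called, and their summed intensity was higher in cortex (89.9 against 53.9). The vessel genes Pecam1 and Cdh5 and the pericyte genes Rgs5 and Cspg4 lay under the floor on both arrays. Acta2 (65.1 and 41.2), Aldh1l1 (17.1 and 6.09) and Gfap (4.43 and 2.17) were brighter in cortex. Acta2 made up most of the sum, and its log2 difference was -0.08 after quantile normalization and 0.02 after loess. A second Aldh1l1 probe lay under the floor on both arrays (0.233 and 0.118). The vessel gene Tek (0.928 and 2.40, 2.58-fold) was brighter in epithelium, as Pdgfra and Sulf1 were, without passing the limit. The astrocyte gene Aqp4 (0.199, under the floor, and 0.726) was brighter there too. The part of such cells in those values was not tested. In such samples, fewer cells of a type and less RNA per cell cannot be told apart.

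Ksr1, which encodes a scaffold that brings Raf, MEK and ERK together, had the largest difference toward cortex on 1 probe and none on the other. The probe used stood at 81.7 in cortex and 0.666 in epithelium, 122.7-fold (log2 6.94, 6.33 times the pooled SD), rank 3 toward cortex among 8351 genes. With the floor raised to the median it was at least 81.9-fold. The second probe, annotated through the RefSeq transcript of the gene, lay under the floor on both arrays (0.402 and 0.0159). The probe used is annotated through a sequence tag. The 2 probes therefore disagree on whether any Ksr1 signal was present in cortex, and the call is lost with the second probe. Their disagreement is not part of the pooled SD, so the multiple of 6.33 does not measure probe error for Ksr1.

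Adaptors next to the receptors split between the samples. Of 25 measured of 28 listed, 3 were higher in cortex and 2 in epithelium (20% called, against 17.6% of all genes). The median log2 difference was 0.17 (0.24 over those above the floor). Frs3, the relative of Frs2 that also docks to FGF receptors, was higher in epithelium on both of its probes, at 0.955 in cortex and 5.81 in epithelium (6.08-fold) and at 0.781 and 4.15 (5.31-fold). Grb10, an adaptor that restrains insulin-type receptors, stood at 2.70 and 23.1 (8.55-fold). Its second probe stood at 1.20 and 1.13, marginally brighter in cortex. Cblb, a ubiquitin ligase that acts on activated receptors, was higher in cortex (23.7 and 5.62, 4.22-fold). Shc3 (at least 3.22-fold) and Crk (3.06-fold) were higher in cortex too and passed neither with the floor raised to the median nor after centring on ribosomal protein genes, and the latter also ended the call of Cblb.

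In the Ras, Raf, MEK and ERK cascade, 2 of 18 measured genes were higher in epithelium and none in cortex, of 28 listed. The share called was 11.1%, against 17.6% of all genes, and the median was 0.00 (-0.19 over those above the floor). Map2k1, which encodes a MEK kinase, stood at 5.65 in cortex and 18.1 in epithelium (3.21-fold), near the limit. Cnksr3, of the connector enhancer of KSR family, stood at 1.16 and 5.48 (4.73-fold). The other MEK gene Map2k2 (32.3 and 31.4) and the Raf gene Araf (21.7 and 24.8) had nearly the same value on both arrays.

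The feedback regulators among the members did not go one way. Spry1, a Sprouty inhibitor, was higher in cortex (29.7 against 6.56 in epithelium, 4.52-fold, log2 2.18, 1.98 times the pooled SD), with rank 677 toward cortex. Spry2, its close relative, stood at 4.53 and 2.98 (1.52-fold, log2 0.60, 0.55 times the pooled SD) and did not pass. Dusp6, the cytoplasmic ERK phosphatase, was brighter in epithelium, at 2.12 against 0.410 in cortex, which lies under the floor, so that its fold is at least 4.25. With the floor raised to the median the Dusp6 bound was 2.13-fold and the call was lost. Each of these 3 genes had 1 probe. Spry1 did not pass after centring on ribosomal protein genes (log2 1.26), where Spry2 changed direction (-0.31).

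Of 19 other feedback regulator genes measured of 23 listed, 5.26% were called, against 17.6% of all genes. Their median was 0.00 (-0.21 over those above the floor). Here 1 gene was higher in cortex and none in epithelium. That gene was Dusp4, a nuclear ERK phosphatase, at 3.29 in cortex and under the floor in epithelium (0.384), at least 6.59-fold. Spry4 had 2 probes that disagreed in direction, at 2.20 and 0.637 and at 2.71 and 4.19, and none of the other Dusp genes on the list or the Spred genes passed.

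Transcriptional targets of ERK signalling were mostly dim. Of 23 measured of 24 listed, 12 lay at the floor on both arrays, 2 were higher in cortex and 1 in epithelium. Etv1, an ETS factor gene of the FGF-responsive PEA3 group, stood at 29.9 in cortex and 3.88 in epithelium (7.70-fold). Its group members Etv4 (0.234 and 0.131) and Etv5 (0.128 and 0.198) lay under the floor. Elk1, an ETS factor that ERK phosphorylates, was at least 3.98-fold higher in cortex, and Phlda1 was at least 5.51-fold higher in epithelium. Elk1 and Phlda1 did not pass once the floor was raised to the median, and Elk1 did not after centring on ribosomal protein genes.

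**Figure D3:**
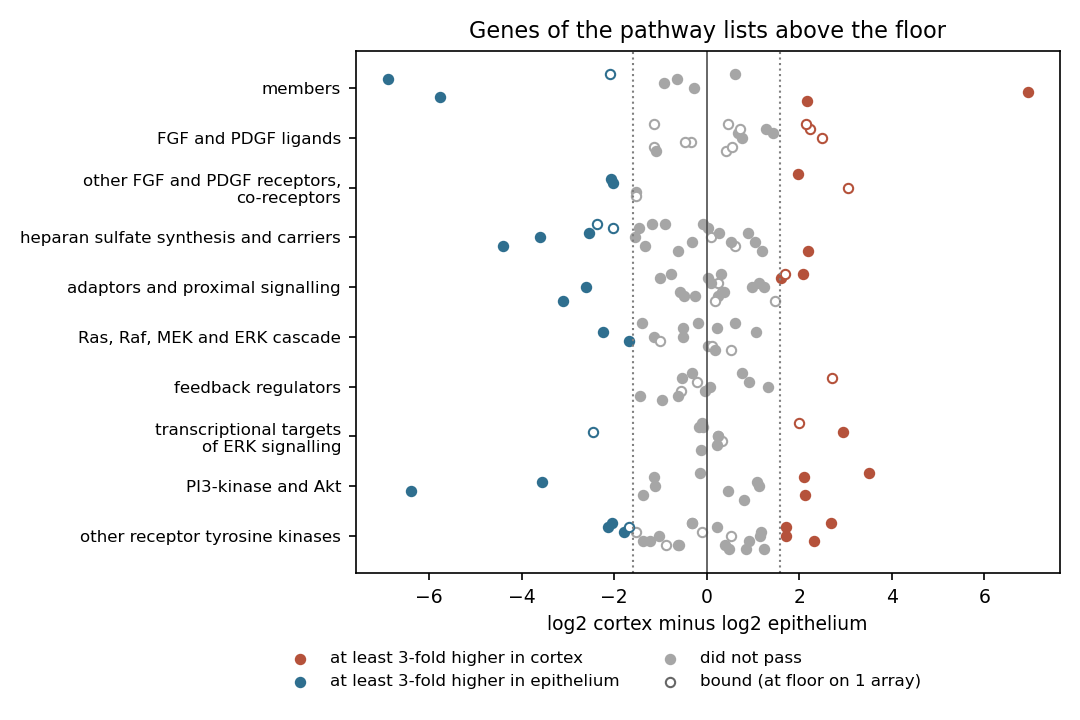
Log2 difference (cortex minus epithelium) of each gene above the floor on at least 1 array, for the members and the 9 pathway lists, 1 row per list. Red marks genes passing the 3-fold limit in cortex, blue those passing in epithelium and grey those that did not pass, open symbols are bounds, and dotted lines are the 3-fold limits. Heparan sulfate genes have 5 blue symbols and 1 red, and the ligands have 3 red open symbols.

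The ligand genes were mostly at or near the floor. Of 25 measured of 26 listed, 9 lay at the floor on both arrays and 11 were above it on 1 array alone. The share called was 12%, against 17.6% of all genes. Fgf12, whose product acts inside cells, Fgf10 and Pdgfb were called higher in cortex, all 3 as bounds (at least 5.59-fold, 4.68-fold and 4.40-fold), with brighter values of 2.79, 2.34 and 2.20. None of the 3 passed with the floor raised to the median or after centring on ribosomal protein genes. Pdgfa, the ligand of PDGF receptor alpha, stood at 10.4 in cortex and 22.1 in epithelium and did not pass. After centring on ribosomal protein genes Pdgfa passed in epithelium (log2 -2.00). Fgf1 was under the floor in cortex (0.141) and at 1.09 in epithelium, and Fgf2 (0.331 and 0.189) was under it on both.

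**Figure D4:**
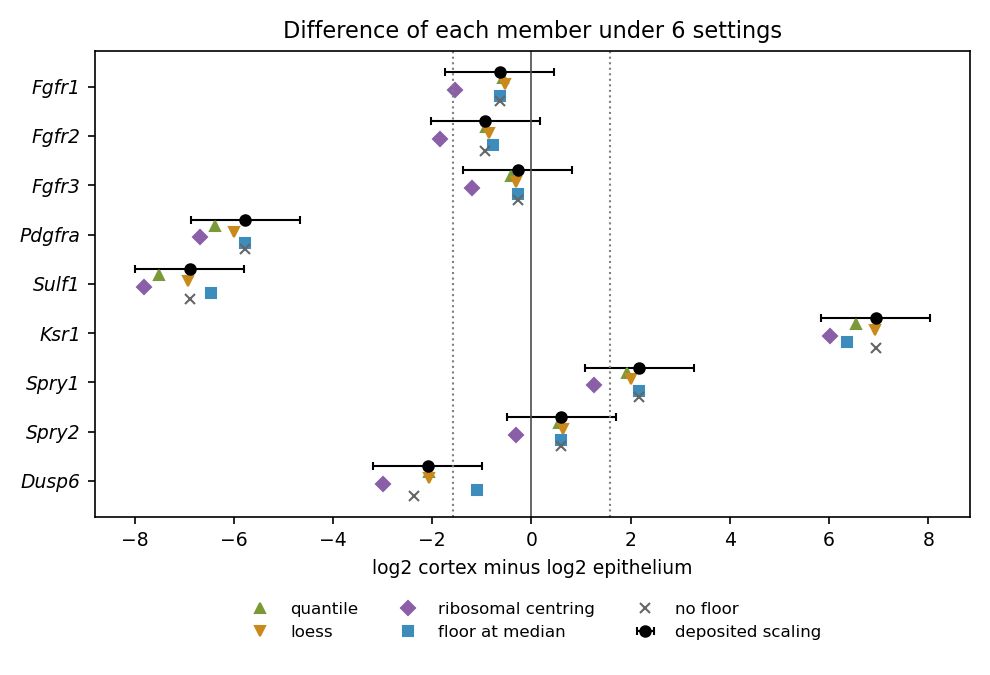
Log2 difference (cortex minus epithelium) of the 9 measured members under the deposited scaling (black), quantile normalization, loess on brightness, centring on ribosomal protein genes, a floor at the array median and no floor. Bars are ± the pooled SD of 1.10 between probes over 558 genes, none of them a member. Probes under the floor in either sample did not enter this SD. Dotted lines are the 3-fold limits. Sulf1, Pdgfra and Ksr1 lie past the limit in all 6 settings, Dusp6 moves inside it with the floor at the median, and Spry1 moves inside it with ribosomal centring.

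The calls of Sulf1, Pdgfra and Ksr1 held under quantile normalization, loess, ribosomal centring and both other floors, where the log2 difference ran from -7.80 to -6.45 for Sulf1, from -6.68 to -5.77 for Pdgfra and from 6.03 to 6.94 for Ksr1. Centring on 66 ribosomal protein genes moved the median over the 8351 genes from 0.03 to -0.88 and added Fgfr2 to the members called in epithelium (log2 -1.84). The same amount was subtracted from each gene above the floor. With the second brightest probe, Sulf1 kept its call (log2 -2.47) while Pdgfra (-1.45) and Ksr1 lost theirs.

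With 2 samples, a pattern across samples consists of the 2 values alone. By the distance of both log2 values, the genes closest to Pdgfra were Ecrg4 (2.90 in cortex and 80.3 in epithelium, distance 0.70) and Pcolce (4.02 and 106.6, distance 0.90). Closest to Sulf1 were Inppl1 (1.14 and 95.5, distance 0.65) and Antxr1 (0.625 and 55.3, distance 0.70). Closest to Spry1 were Gprc6a (31.1 and 6.34, distance 0.083) and Gpr132 (30.4 and 6.99, distance 0.098), in a range of values that many genes share. Closest to Ksr1 were the gene 4933406C10Rik (84.9 and 0.817, distance 0.30) and Nfatc2 (79.6 and 0.830, distance 0.32).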

How the data were processed

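Poly(A) RNA from 1 cortex and 1 epithelium sample was measured on 1-colour CodeLink mouse arrays, per the labels. The authors deposited 1 normalized intensity per probe and array. How background and scaling were handled is not stated in the sources used here. The table holds 19819 probes, of which 87 lack a value in cortex and 97 in epithelium. The deposited intensity was kept, floored at 0.5 of each array's median and converted to log2, and 65.5% and 60.9% of probes lay above the floor. Samples were grouped by source name.

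Probes were named through the platform annotation (15120 with 1 symbol, 38 with several, 4661 with none). Of several probes for a gene, the brightest by mean log2 over both arrays stood for it. Probe sequences and positions were not used. Gene lists of the pathway and of cell types, the 3-fold rule and the members were chosen with earlier results of these data known. The text names all members with every probe, up to 5 called genes per pathway list, markers beside a result, and the 2 genes closest to each called member measured on both arrays; other list genes were named after their values were seen. Alternatives were quantile normalization, loess (span 0.3), centring on ribosomal protein genes, a floor at the median, no floor, the mean over probes, the second brightest probe, and fold limits of 2 and 5. The number of arrays limits the precision. The procedure was tested on simulated data in which large differences were put into bright genes with 1 probe. Dim genes and genes with disagreeing probes were not covered by it. Python 3.11.15, numpy 2.4.6, pandas 2.3.3, statsmodels 0.14.6 and matplotlib 3.10.9 were used.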

Additional observations from a re-analysis of the deposited data

How the results depend on the processing

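The members called higher in epithelium numbered 3 (8.17% of all genes) and ranged from 2 to 4 over the alternatives. The 4 came after centring on ribosomal protein genes, where 20% of all genes were called in epithelium. The 2 came with the floor at the median (6.4% of all genes), the second brightest probe (7.85%) and a fold limit of 5 (3.48%). The 2 members called higher in cortex (9.41% of all genes) became 1 after centring on ribosomal protein genes (Ksr1, 4.32% of all genes). They also became 1 with the second brightest probe (Spry1, 8.7%) and 1 with a fold limit of 5 (Ksr1, 5.09%). The members' median difference of -0.64 became -1.55 after ribosomal centring and stayed between -0.64 and -0.53 elsewhere. Over the 9 pathway lists, 19 of 198 genes passed in cortex and 18 in epithelium (18.7% called, against 17.6% of all genes). Ribosomal centring gave 5 and 41, the floor at the median 11 and 11, a fold limit of 2 gave 33 and 38, and a limit of 5 gave 6 and 9. Quantile normalization gave 18 and 21, and loess 18 and 19. Cortex took 53.5% of all calls with the deposited scaling and 17.8% after ribosomal centring, so the balance between directions in any list is not settled. With the mean over probes, Sulf1 was at -4.68, Pdgfra at -3.61 and Ksr1 at 3.47. With the second brightest probe Pdgfra was at -1.45 and Ksr1 at 0, under the floor on both arrays, and both lost their calls. No called member changed direction in any alternative, but Ksr1 had no direction with that probe. Calls of dim genes depended on the floor, and signal over background was not measured. No paired analysis was possible because each sample has 1 array and the replicate numbers do not pair samples.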

Other observations

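Genes of the PI3-kinase branch, which growth factor receptors also feed, had calls in both directions. Of 17 measured of 22 listed, 3 were higher in cortex and 2 in epithelium (29.4% called, against 17.6% of all genes). Inppl1, a lipid phosphatase of that branch, stood at 1.14 in cortex and 95.5 in epithelium (83.9-fold), and the forkhead factor gene Foxo1 stood at 1.15 and 13.6 (11.8-fold). Pik3ca, a catalytic subunit of PI3-kinase, went the other way, at 122 in cortex and 10.7 in epithelium (11.4-fold), as did Pik3cb (2.98 and 0.695) and Tsc2 (88.6 and 20.4). Tsc2 did not pass after quantile normalization, loess or ribosomal centring, and Pik3cb did not after ribosomal centring or once the floor was raised to the median. The calls of Inppl1, Foxo1 and Pik3ca held under these scalings and floors.

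Of 35 other receptor tyrosine kinase genes measured of 44 listed, 4 were higher in cortex and 4 in epithelium. Erbb4, a neuregulin receptor gene, stood at 56.2 in cortex and 11.3 in epithelium (4.96-fold), and Musk at 3.89 and 0.605 (6.43-fold). The collagen receptor genes Ddr1 (3.85 and 15.9, 4.15-fold) and Ddr2 (0.575 and 2.52, 4.39-fold) were both higher in epithelium, and Ephb3 (0.747 and 2.59, 3.47-fold) was higher there as well. Neither Ddr2 nor Ephb3 passed once the floor was raised to the median. Erbb4 did not pass after ribosomal centring.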
